A study of Mus musculus with 4 samples.

Results

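Platelet-derived growth factors (PDGFs) were followed through single cells of mouse liver: the 4 ligand genes Pdgfa, Pdgfb, Pdgfc and Pdgfd and the 2 receptor genes Pdgfra and Pdgfrb. The members were chosen by name, with earlier results of these data known. All 6 were found by symbol among the 50766 genes of the deposited table, of which 31933 had at least 1 UMI (unique molecular identifier, 1 captured transcript). Single-cell RNA sequencing was made of liver cells labelled as biliary epithelial cells (BECs, the lining of the bile ducts) from Sox9EGFP animals, a reporter in which regulatory sequences of Sox9 drive a green fluorescent protein. All 4 libraries share this genotype. In 2 libraries the animal had sham surgery 7 days earlier, and in the other 2 it had bile duct ligation (BDL), in which the bile duct is tied off so that bile backs up into the liver. Age, sex and any sort on EGFP are not given in the sources used here. The comparison is of BDL with sham, n = 2 libraries per group, each taken as 1 mouse. Nothing in the labels states that the libraries come from separate animals, so the p-values measure the spread between these libraries only.

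PDGFs are secreted dimers that bind 2 receptor tyrosine kinases. PDGF-AA acts through the alpha receptor, PDGF-BB through both receptors, PDGF-CC mainly through alpha and PDGF-DD mainly through beta. PDGF-C and PDGF-D are secreted in a latent form and become active once a protease removes their CUB domain. In liver, stellate cells and portal fibroblasts carry the receptors, and PDGF is known as a strong mitogen for the cells that deposit scar matrix.

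Pdgfc and Pdgfd, the ligands with a CUB domain, both fell in BEC-like cells after BDL, so the bases around their start sites are shown. Both are from RefSeq on build GRCm38.p6, another build than that of the counts, and span 250 bases before to 50 bases after the start, on the plus strand. Pdgfc is at chr3:81036166-81036465 and Pdgfd at chr9:6168236-6168535. Capitals mark matches on either strand to the TATA box (TATAAA), the GC box that Sp1 is known to bind (GGGCGG), the AP-1 motif (TGANTCA), the TEAD motif (GGAATG) or the NF-kB motif.
Pdgfc: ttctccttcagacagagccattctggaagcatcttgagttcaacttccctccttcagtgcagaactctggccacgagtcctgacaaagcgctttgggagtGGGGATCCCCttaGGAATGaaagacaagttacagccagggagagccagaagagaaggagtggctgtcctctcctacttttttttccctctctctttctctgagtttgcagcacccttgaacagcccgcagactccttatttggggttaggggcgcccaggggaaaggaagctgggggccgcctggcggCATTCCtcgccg
Pdgfd: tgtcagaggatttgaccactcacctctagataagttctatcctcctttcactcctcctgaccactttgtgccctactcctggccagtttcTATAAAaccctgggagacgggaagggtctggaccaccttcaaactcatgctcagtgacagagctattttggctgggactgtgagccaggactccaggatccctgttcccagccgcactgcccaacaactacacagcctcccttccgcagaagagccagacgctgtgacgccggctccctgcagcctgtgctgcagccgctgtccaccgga

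The Pdgfc window holds GGAATG at -137 and, on the other strand, at 39 from the start site, and an NF-kB match at -150 that reads the same on both strands. The Pdgfd window holds TATAAA at -160. No match overlaps another. Of 32851 promoters of the same length, 14.7% hold the TEAD motif, 4.51% the NF-kB motif, 13.6% the TATA box, 35.7% the GC box and 7.81% the AP-1 motif. These matches are descriptions of letters and name no bound factor. The reference used held no window for Pdgfb. The windows of Pdgfa, not shown, held matches to the GC box only, and that of Pdgfra held none.

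Libraries held 2863 and 3194 cells (sham 1 and 2) and 2089 and 4065 cells (BDL 1 and 2), with 10024577 to 33809650 UMIs each and no cell barcode in common. The median cell held 3260 UMIs in sham 1, 2610 in sham 2, 7058 in BDL 1 and 7793 in BDL 2, so depth differed with the groups. A group column inside the deposited cell tables goes against the sample labels for 2 libraries: it reads BDL for sham 2 and sham for BDL 2. All results follow the sample labels, and the member calls in BEC-like and mesenchymal-like cells are also given without each of these 2 libraries. Leaving out a library does not test an exchange of labels. Among BEC-like clusters, cluster 1 held 993, 764, 4 and 4 cells of sham 1, sham 2, BDL 1 and BDL 2. Cluster 2 held 4, 1, 487 and 1097, so in these clusters sham 2 lay with sham 1 and BDL 2 with BDL 1. BDL 2 stood apart in Xist, the RNA of the inactive X chromosome. Xist was at 1918 CPM (UMIs scaled to a library total of 1000000) in BDL 2 against 7.72 to 10.3 in the others. A difference in sex between BDL 2 and the others would show in this way, and its part in the results was not tested. After filters 12179 cells were used. By their markers 10969 were BEC-like, 804 mesenchymal-like, 215 endothelial-like, 87 macrophage-like and 76 hepatocyte-like, and 28 stayed unnamed.

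Pdgfra and Pdgfrb were read almost only in mesenchymal-like cells, while Pdgfb, Pdgfc and Pdgfd came mostly from BEC-like cells. Mesenchymal-like cells supplied 95.6% to 98.4% of the UMIs of either receptor in each library. BEC-like cells supplied 98.2% to 99.1% of those of Pdgfb, 96.6% to 99.2% of Pdgfc, 95.01% to 99.2% of Pdgfd and 83.0% to 92.4% of Pdgfa. BEC-like cells held 92.1%, 84.5%, 95.2% and 94.6% of all UMIs in sham 1, sham 2, BDL 1 and BDL 2, so the share of Pdgfa, at 92.0%, 83.0%, 90.5% and 92.4%, was below that of all genes in each library. These class levels describe the libraries and were not tested, and the 6 genes were kept out of the clustering that made the classes. When allowed, Pdgfra and Pdgfrb were among the variable genes and the other 4 were not.

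**Figure D1:**
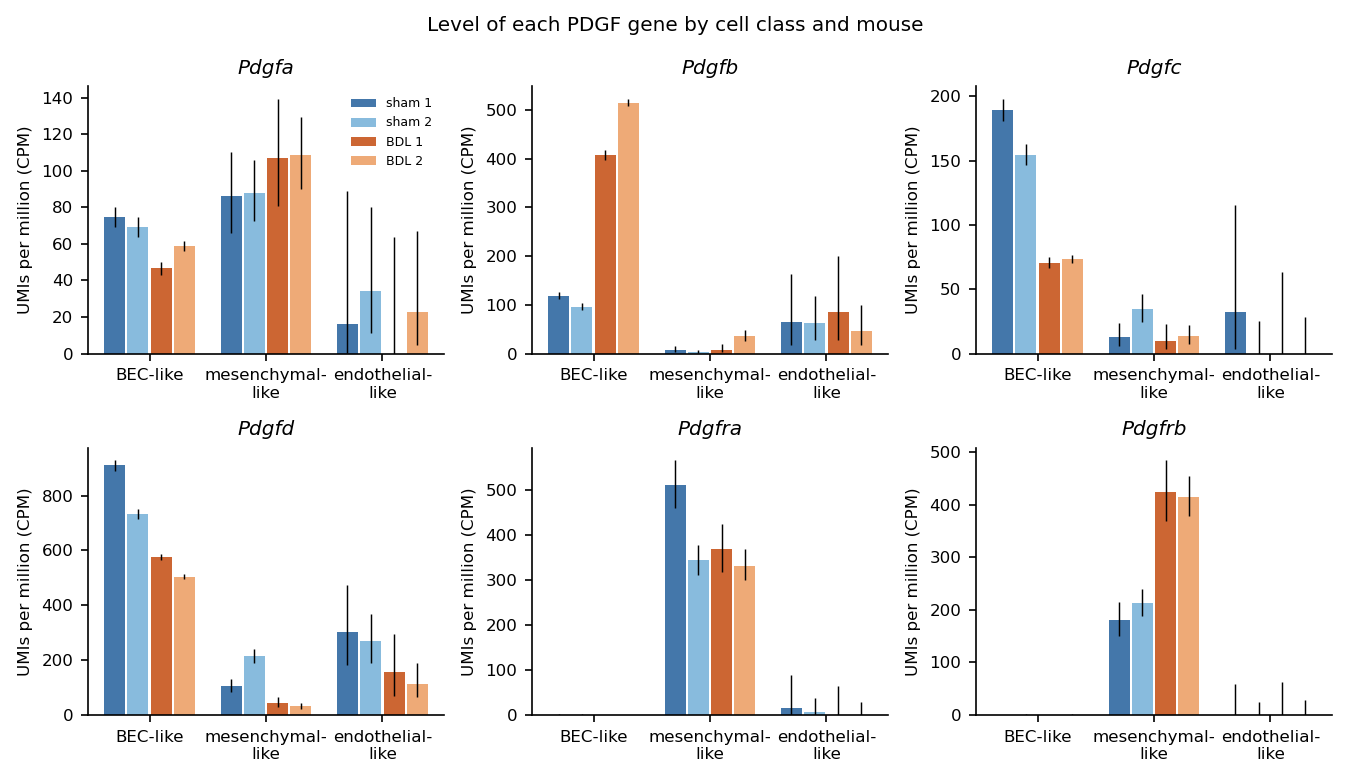
Level of each gene (CPM, linear axis) in BEC-like, mesenchymal-like and endothelial-like cells. Each bar is 1 library and each line its exact 95% Poisson interval, which covers counting error only. The receptors stand in mesenchymal-like cells, Pdgfc and Pdgfd are highest in BEC-like cells, as is Pdgfb in BDL, while in sham its intervals in BEC-like and endothelial-like cells overlap, and the levels of Pdgfa are lowest in endothelial-like cells.

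Pdgfb, the ligand gene that codes for PDGF-B, rose about 4-fold in BEC-like cells after BDL. Its level was 119 and 96.3 CPM in sham 1 and 2, and 407 and 515 CPM in BDL 1 and 2. Both BDL libraries lay far above both sham libraries. The log2 fold change was 2.13 (SE 0.15, edgeR quasi-likelihood test, adjusted p = 0.000439, n = 2 per group), a 4.37-fold rise. Pdgfb stood at rank 296 from the top among 15969 genes tested. The call held without each library, and among those the log2 fold change was 2.08 without sham 2 and 1.95 without BDL 2.

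Pdgfc, which codes for a latent ligand of the alpha receptor, fell. It was read at 189 and 155 CPM after sham surgery and at 70.7 and 73.6 CPM after BDL, with no overlap. The log2 fold change was -1.23 (SE 0.11, edgeR adjusted p = 0.000958), or 2.34-fold lower. It was -1.27 without sham 2 and -1.25 without BDL 2, and the call held without each of the 4 libraries.

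Pdgfd, which codes for the latent ligand of the beta receptor, also fell, by less. Its levels were 910 and 733 CPM in sham and 576 and 505 CPM in BDL, which do not overlap. The log2 fold change was -0.58 (SE 0.13, edgeR adjusted p = 0.0196), or 1.49-fold lower. This call was lost without sham 1 (-0.49, adjusted p = 0.124) and without sham 2 (-0.63, adjusted p = 0.0644), and kept without BDL 2 (-0.48, adjusted p = 0.0375).

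Pdgfa, which codes for the ligand of the alpha receptor alone, did not pass the test in BEC-like cells. It was read at 74.6 and 69.0 CPM in sham and at 46.5 and 59.0 CPM in BDL. The groups did not overlap, and the log2 fold change was -0.42 (SE 0.14, edgeR adjusted p = 0.0696). It passed without BDL 2 (-0.60), and was -0.24 without BDL 1, -0.43 without sham 1 and -0.38 without sham 2. With upper-quartile scaling it passed (-0.53, edgeR adjusted p = 0.028), a scaling that puts the median of all genes at -0.13 rather than -0.02. With no filter on low counts it did not pass (-0.29, edgeR adjusted p = 0.238).

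Of the 6 members, 4 had enough UMIs in BEC-like cells to be tested, and 1 rose and 2 fell. Over all genes tested 27.3% were called, 14.3% higher and 13.0% lower after BDL. A call was therefore common in these cells. By log2 fold change Pdgfc was at rank 1344 and Pdgfd at rank 3573 from the lowest of the 15969 genes, so many genes fell by more than Pdgfd. The receptors did not reach the filter: BEC-like cells held 5, 6, 4 and 14 UMIs of Pdgfra and 3, 6, 6 and 21 of Pdgfrb in sham 1, sham 2, BDL 1 and BDL 2. Those are 0.0745% to 0.208% of the mesenchymal-like level for Pdgfra and 0.0968% to 0.333% for Pdgfrb. The 11 mesenchymal marker genes stood in the same cells at a median of 0.0441% to 0.239%, so receptor UMIs in BEC-like cells were at the level of markers that these cells should lack.

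Of 5 sets of markers of other cell types, 2 did not overlap between the groups in BEC-like cells, and the mesenchymal (27.3 to 37.7 CPM), macrophage (42.9 to 45.2 CPM) and platelet (9.81 to 14.5 CPM) sets did. The 11 hepatocyte markers summed to 309 and 241 CPM in sham and 86.6 and 83.8 CPM in BDL, with 2, 1, 0 and 0 of them at 0. The 11 endothelial markers summed to 50.2 and 53.4 CPM in sham and 26.6 and 14.9 CPM in BDL, with none at 0. Without the cells that held 2 or more mesenchymal, endothelial or macrophage markers, the edgeR log2 fold change was 2.10 for Pdgfb, -1.26 for Pdgfc and -0.56 for Pdgfd (adjusted p = 0.000435, 0.000711 and 0.0211). The part of hepatocyte transcripts in the falls of Pdgfc and Pdgfd was not tested.

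**Figure D2:**
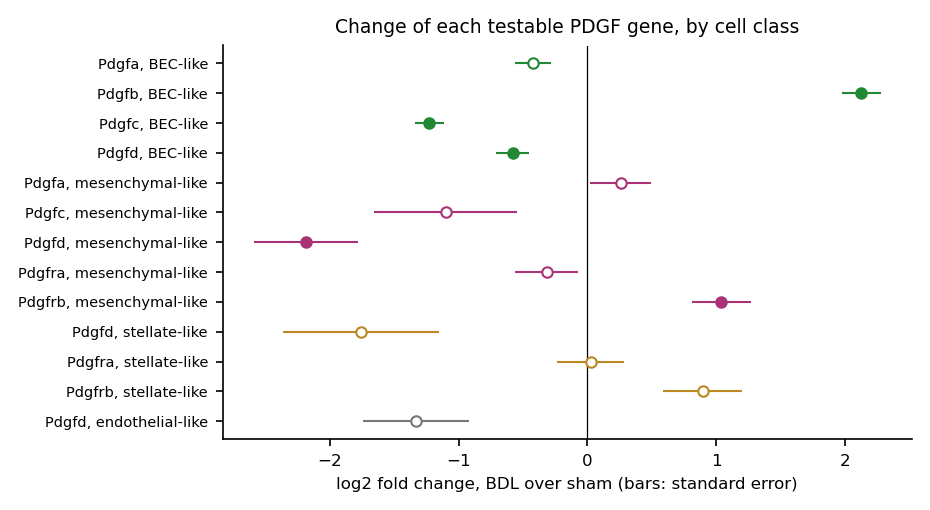
Log2 fold change of BDL over sham for each member with enough UMIs to be tested, by cell class, with its standard error (n = 2 libraries per group). Filled points passed an adjusted p of 0.05 in edgeR and open points did not. Pdgfb rises in BEC-like cells and Pdgfrb in mesenchymal-like cells, while Pdgfd is below 0 in each class where it could be tested.

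The share of BEC-like cells with a UMI moved in the same directions once depth was made equal. Each cell was thinned to 1000 UMIs, which left out 77 and 105 shallower cells in sham 1 and 2 and 0 in the BDL libraries. Cells with a Pdgfb UMI were 9.43% and 7.76% in sham and 30.4% and 36.2% in BDL (8.59% ± 1.18 against 33.3% ± 4.12, SD, n = 2). Pdgfc was seen in 14.1% ± 1.73 and then 6.64% ± 0.46 of cells, Pdgfd in 47.8% ± 3.6 and 37.0% ± 2.2, and Pdgfa in 7.56% ± 1.03 and 4.98% ± 1.21. At this depth the groups do not overlap for any of the 4 ligands, nor for 59.0% of the 15969 genes tested in these cells (28.2% higher and 30.8% lower in BDL), so the lack of overlap is common here. At 2000 UMIs per cell they overlapped for Pdgfa (12.6% and 11.6% in sham, 8.50% and 11.7% in BDL, exact permutation p = 0.67). Without sham 2 the change at 1000 UMIs was 23.8 percentage points for Pdgfb, -8.67 for Pdgfc, -13.3 for Pdgfd and -3.30 for Pdgfa, and without BDL 2 it was 21.8, -7.77, -9.24 and -3.43. With 2 against 2 the exact permutation test, two-sided, cannot go below p = 0.33, which is the value for each ligand at 1000 UMIs. Unthinned shares were 20.6% and 81.4% for Pdgfb, 33.0% and 31.4% for Pdgfc, 75.7% and 85.7% for Pdgfd and 19.2% and 28.8% for Pdgfa. Depth thus turned the direction for Pdgfd and Pdgfa, and those unthinned shares go against the CPM and are not read as a rise. For comparison, 0.27% to 3.03% of mesenchymal-like cells had a Pdgfb UMI at the same depth.

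**Figure D3:**
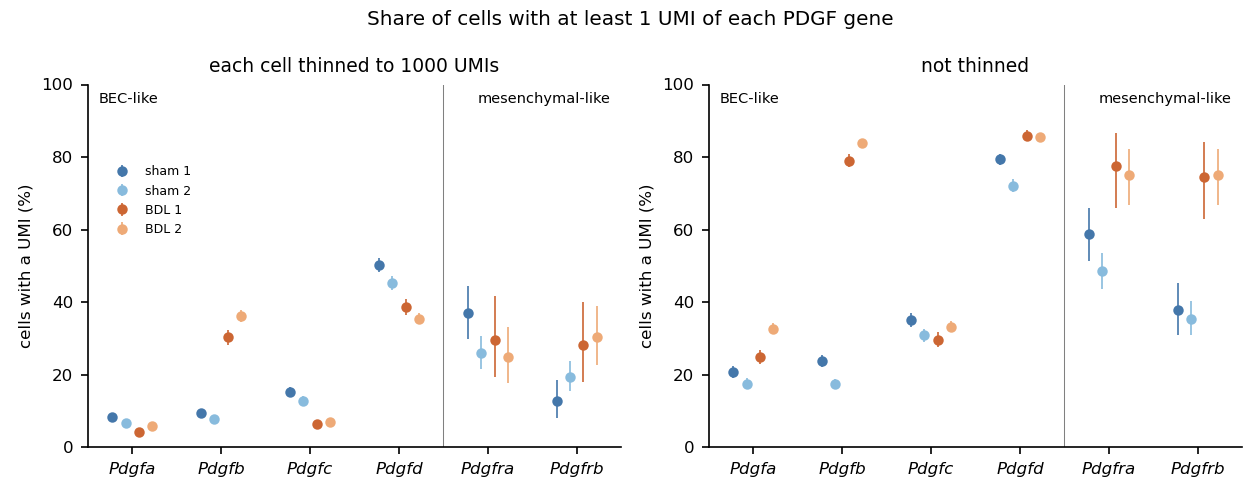
Share of cells with at least 1 UMI of each gene (percent), the ligands in BEC-like cells and the receptors in mesenchymal-like cells. Each point is 1 library with its exact 95% binomial interval, at 1000 UMIs per cell (left) and at full depth (right). At equal depth the BDL libraries are above the sham libraries for Pdgfb and Pdgfrb and below for Pdgfc and Pdgfd.

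Different BEC-like clusters held most cells of each group, so the levels were read within clusters as well. Of the 10 clusters, 4 held mostly sham cells (1, 4, 6 and 7) and 6 mostly BDL cells (2, 3, 5, 8, 10 and 11). Pdgfb was lowest in cluster 4, led by Ddit4l, Fos and Jun (54.7 and 34.1 CPM in sham 1 and 2), and in cluster 7, led by Aldh3b3 (43.4 and 39.7 CPM). It was highest in cluster 3, led by Nos2, an enzyme that makes nitric oxide, and Ccl20, a chemokine (546 and 647 CPM in BDL 1 and 2). The sham cluster with the most Pdgfb was cluster 6, led by Car4 (209 and 193 CPM), and it overlapped the BDL cluster with the least, cluster 8, led by Dscaml1 (200 and 223 CPM). Clusters 5 and 6 alone held 20 or more cells of both groups. In cluster 6 the 21 cells of BDL 1 gave 348 CPM of Pdgfb and the 10 cells of BDL 2 gave 186 CPM, against those 209 and 193 CPM in sham. In cluster 5 the 15 cells of each sham library gave 413 and 112 CPM (23 and 8 UMIs), against 417 and 511 CPM in BDL 1 and 2. Within cluster 6 the groups thus overlapped, and in cluster 5 the interval of sham 1 (262 to 620 CPM) held both BDL levels while that of sham 2 (48.2 to 220 CPM) was below them. Both sham libraries together gave 243 CPM in cluster 5.

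Pdgfd ran the other way over the clusters. It was highest in cluster 7 (1284 and 962 CPM in sham 1 and 2) and lowest in cluster 5, led by the mucosal gene Dmbt1 (358 and 376 CPM in BDL 1 and 2). Among clusters of BDL cells, cluster 8 was the highest at 905 and 795 CPM, above the sham levels of cluster 6 at 659 and 598 CPM. Pdgfc had a similar order, from 263 and 195 CPM in cluster 4 to 37.4 and 43.1 CPM in cluster 3, and cluster 8 was again the highest of the BDL clusters at 131 and 120 CPM. Pdgfa ranged from 35.4 CPM (cluster 2, BDL 1) to 103 CPM (cluster 4, sham 1), with sham and BDL clusters overlapping. With each cluster given the same weight, BDL over sham was 3.21 for Pdgfb, 0.56 for Pdgfc, 0.71 for Pdgfd and 0.89 for Pdgfa, values without a test. These average 5 clusters in sham and 7 in BDL, of which only 2 are the same, so they are not corrected for cluster make-up. Without cluster 11, the cycling cells, the calls for Pdgfb, Pdgfc and Pdgfd held.

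**Figure D4:**
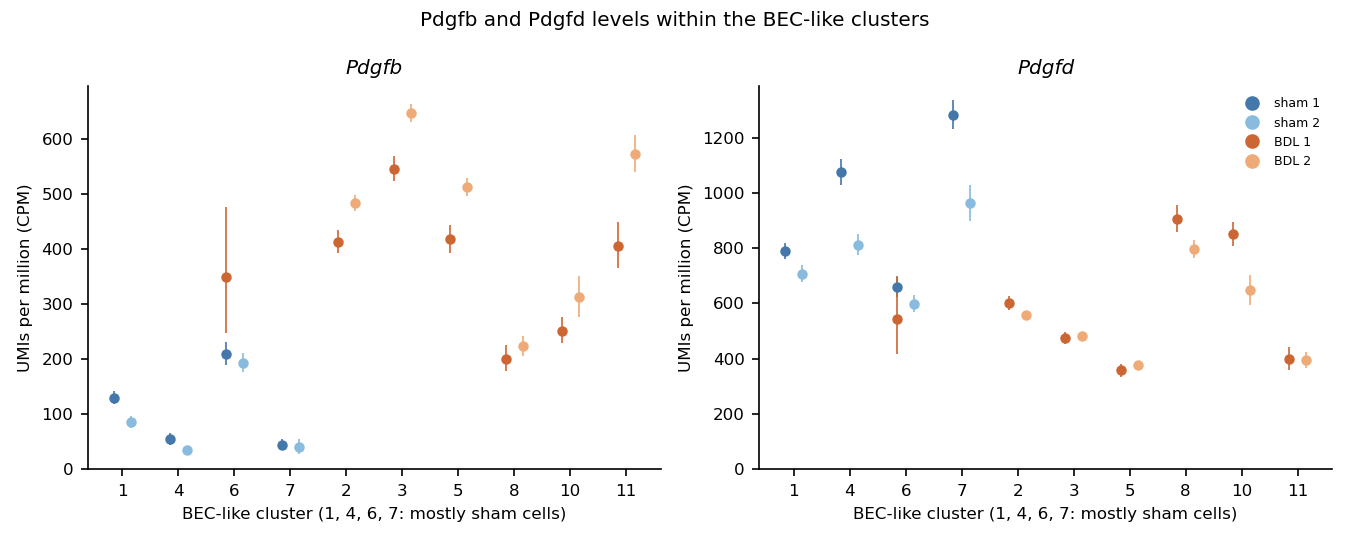
Pdgfb (left) and Pdgfd (right) in the BEC-like clusters, in CPM. Points are libraries with at least 20 cells in the cluster and lines are exact 95% Poisson intervals. Clusters 1, 4, 6 and 7 hold mostly sham cells. Pdgfb is highest in cluster 3 and Pdgfd in cluster 7.

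The order of Pdgfd and Pdgfb in BEC-like cells was read with and without scaling by length. By CPM alone Pdgfd was above Pdgfb in sham (910 against 119, and 733 against 96.3). It was above Pdgfb in BDL 1 too (576 against 407) and just below it in BDL 2 (505 against 515). The lengths are from build GRCm38, another build than that of the counts. Per kilobase of exon, Pdgfd stood at 288 and 233 CPM in sham BEC-like cells and Pdgfb at 40.3 and 32.7. In BDL 1 Pdgfd stood at 183 and Pdgfb at 138, and in BDL 2 at 160 and 175. The order depends on the length used. Per kilobase of gene span Pdgfb was above Pdgfd in all 4 libraries (4.12 against 2.49, 3.35 against 2.004, 14.2 against 1.57 and 17.9 against 1.38 CPM).

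In mesenchymal-like cells the beta receptor gene rose and the alpha receptor gene did not pass the test. Pdgfrb was read at 180 and 213 CPM in sham and at 425 and 416 CPM in BDL, a clear gap between the groups. Its log2 fold change was 1.04 (SE 0.23, edgeR adjusted p = 0.0316), or 2.06-fold. The call was lost without sham 1 (0.89, adjusted p = 0.218) and held without sham 2 (1.22, adjusted p = 0.0406) and without BDL 2 (1.09, adjusted p = 0.0256). Pdgfra was read at 510 and 343 CPM in sham and at 368 and 332 CPM in BDL, and the groups overlapped (log2 fold change -0.32, SE 0.24, edgeR adjusted p = 0.501). The ratio of Pdgfrb to Pdgfra UMIs, not corrected for length, was 0.35 and 0.62 in sham and 1.15 and 1.25 in BDL. Of the 6 members 5 could be tested here, 1 rose and 1 fell, beside 6.36% of 8752 genes called, 2.46% higher and 3.91% lower.

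At 1000 UMIs per cell, 12.7% and 19.5% of mesenchymal-like cells had a Pdgfrb UMI in sham and 28.2% and 30.3% in BDL (exact permutation p = 0.33, the smallest possible). In stellate-like cells alone the Pdgfrb shares overlapped, at 8.82% and 16.0% in sham and 21.4% and 14.3% in BDL (exact permutation p = 0.67). At 2000 UMIs these were 25.0% and 33.1% in sham and 33.3% and 52.4% in BDL, and unthinned 32.7% and 31.4% against 57.1% and 66.7%, without overlap (exact permutation p = 0.33 for each). For Pdgfra in the whole class the shares at 1000 UMIs were 37.0% and 26.0% in sham and 29.6% and 25.0% in BDL (exact permutation p = 0.67). At 2000 UMIs the direction turned, with 45.4% and 41.2% in sham and 47.8% and 48.5% in BDL and no overlap (exact permutation p = 0.33). In BEC-like cells at 1000 UMIs the shares did not pass 0.0804% for either receptor.

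The mesenchymal-like class was made of 3 clusters in unequal numbers. The stellate-like cluster, with all 11 stellate markers, held 107 and 315 sham cells and 28 and 21 BDL cells. A cluster led by collagen genes held 18 and 14 sham cells and 42 and 108 BDL cells, and an unnamed cluster led by C7 and Adra1a held 62 and 85 sham cells and 1 and 3 BDL cells. Against the other mesenchymal-like cells, the cluster led by collagen genes had 9 collagen-high markers and also 6 portal fibroblast markers. Whether its few sham cells were of the same kind as its BDL cells was not tested. In the stellate-like and collagen-high clusters, each with at least 14 cells in every library, both BDL levels of Pdgfrb were above both sham levels. In stellate-like cells it was 148 and 215 CPM in sham and 341 and 395 CPM in BDL, with no overlap, but the test did not pass (log2 fold change 0.89, SE 0.31, edgeR adjusted p = 0.205). It was 0.59 without sham 1, 1.26 without sham 2, 0.92 without BDL 1 and 0.78 without BDL 2, with edgeR adjusted p from 0.158 to 0.758. There 1.69% of 4192 genes were called, 1.0% higher and 0.692% lower. Of the 3 members tested edgeR and DESeq2 called 0, and 2 (Pdgfrb and Pdgfd) had an unadjusted p under 0.05 in each. In the collagen-high cluster, which was too small in sham 2 to fit, Pdgfrb was 72.2 and 90.7 CPM in sham and 457 and 418 CPM in BDL. Pdgfra stayed within 364 to 405 CPM over the 4 stellate-like sums (edgeR log2 fold change 0.03, SE 0.26, adjusted p = 0.975), and in the collagen-high cluster it was 592 and 293 CPM in sham and 353 and 327 CPM in BDL.

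**Figure D5:**
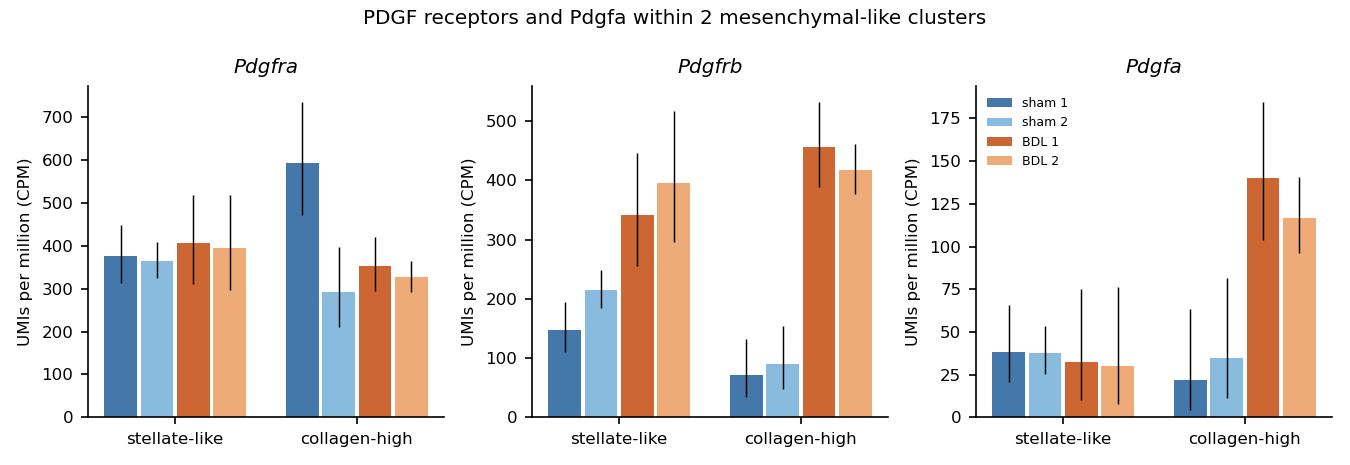
Pdgfra, Pdgfrb and Pdgfa (CPM) in the stellate-like and the collagen-high mesenchymal clusters. Bars are libraries and lines exact 95% Poisson intervals. Pdgfrb is higher in the BDL bars of both clusters, the intervals of Pdgfra overlap between groups except for sham 1 in the collagen-high cluster, whose interval is above both of BDL, and between these 2 clusters Pdgfa is higher in the collagen-high cells of BDL.

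Pdgfa was the only ligand gene at least as high in mesenchymal-like as in BEC-like cells in all 4 libraries. It was 86.0 and 87.9 CPM in sham and 107 and 108 CPM in BDL, and did not pass the test (log2 fold change 0.26, SE 0.24, edgeR adjusted p = 0.581). Its counting intervals overlapped those of BEC-like cells in sham and were above them in BDL. Within the class its source differed. The unnamed cluster gave 193 and 264 CPM in sham, and the collagen-high cluster gave 21.7 and 34.9 CPM in sham (3 and 5 UMIs) and 140 and 117 CPM in BDL. The stellate-like cluster stayed between 29.8 and 38.5 CPM in all 4 libraries.

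Pdgfd was called lower in mesenchymal-like cells, which also held transcripts of biliary markers. It was 106 and 213 CPM in sham and 44.8 and 31.6 CPM in BDL (log2 fold change -2.19, SE 0.40, edgeR adjusted p = 0.0165), 4.55-fold lower, with no overlap. The call held without each library, with -1.51 without sham 2 and -1.88 without BDL 2. In stellate-like cells Pdgfd was 80.0 and 209 CPM in sham and 70.8 and 22.4 CPM in BDL and did not pass (-1.76, SE 0.61, edgeR adjusted p = 0.205). That value was -0.78 without sham 2 and -1.21 without BDL 2, and it passed without sham 1 (-2.29, edgeR adjusted p = 0.000795) and without BDL 1 (-2.93, edgeR adjusted p = 0.00689). In the collagen-high cluster it was 166 and 209 CPM in sham and 30.8 and 30.3 CPM in BDL. The levels in the whole class are 11.6%, 29.1%, 7.78% and 6.27% of the BEC-like level in sham 1, sham 2, BDL 1 and BDL 2. The 11 biliary markers stood in mesenchymal-like cells at a median of 4.59%, 12.4%, 3.72% and 7.56% of their BEC-like level, and from 0.488% to 139% for single markers. The part of such transcripts in the fall of Pdgfd was not tested.

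Pdgfc and Pdgfb were low in mesenchymal-like cells. Pdgfc was 12.7 and 34.4 CPM in sham and 9.74 and 13.6 CPM in BDL, overlapping (log2 fold change -1.10, SE 0.56, edgeR adjusted p = 0.286). Pdgfb held 5 and 4 UMIs in sham and 4 and 39 in BDL, under the filter on low counts, and 1.91% to 6.84% of its BEC-like level. With no filter it was called (2.32, edgeR adjusted p = 0.00205), on the 39 UMIs of BDL 2, and it was again under the filter without that library.

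The fall of Pdgfd was larger in mesenchymal-like than in BEC-like cells by the test of the difference itself. The BEC-like log2 fold change was higher by 1.52 (SE 0.38, edgeR interaction with the library as a block, adjusted p = 0.0152), beside 5.75% of 15298 genes called, 3.18% higher and 2.56% lower. The call was lost without sham 2 (0.77, adjusted p = 0.338) and without BDL 2 (1.34, adjusted p = 0.213). For the other 5 members the difference between the classes did not pass (adjusted p from 0.193 for Pdgfa to 0.95 for Pdgfb).

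Endothelial-like cells, a known source of PDGF-B in vessels, held few UMIs of the family. Pdgfb was 64.0 and 62.0 CPM in sham and 86.1 and 45.8 CPM in BDL, from 4 to 9 UMIs per library, too few to test. Its intervals overlapped those of BEC-like cells in sham, where the order of the classes is not resolved, and in BDL they were below them. Pdgfd was 304 and 268 CPM in sham and 155 and 114 CPM in BDL and did not pass the test (log2 fold change -1.33, SE 0.41, edgeR adjusted p = 0.109), nor without sham 2 (-1.27, adjusted p = 0.473) or BDL 2 (-1.02, adjusted p = 0.366). The class joined 2 clusters in unequal parts, cluster 19 giving 3 of 40, 3 of 122, 3 of 19 and 13 of 34 cells in sham 1, sham 2, BDL 1 and BDL 2. In cluster 12 alone Pdgfd was 311 and 256 CPM in sham and 236 and 187 CPM in BDL, from 9 to 36 UMIs. It was the only member tested in endothelial-like cells, where 1.52% of 2037 genes were called, 0.638% higher and 0.884% lower, so that edgeR called 0 members, with an unadjusted p of 0.00646 for Pdgfd, and DESeq2 gave it no adjusted p. The endothelial-like cells held biliary markers at a median of 6.17% to 15.3% of the BEC-like level, beside 22.7% to 36.6% for Pdgfd. Pdgfrb was at 0 UMIs in all 4 libraries, where a limit of 3 counts allows up to 20.7 CPM in the deepest. Pdgfra was at 1 UMI in each sham library and 0 in BDL.

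Of the 7 proteases listed as activating PDGF precursors or latent PDGFs, all tested in BEC-like cells, 5 rose, 1 fell and 1 did not pass. Their median log2 fold change was 0.74 against -0.02 over all genes tested. This list and those below were chosen with earlier results of these data known, so their counts and medians are descriptions only. Plau, urokinase, which can cut PDGF-D, went from 2.99 ± 0.52 to 31.4 ± 8.12 CPM, here and below scaled by TMM, mean ± SD (log2 fold change 3.41, SE 0.27, edgeR adjusted p = 0.000552). Plat, tissue plasminogen activator, which cuts PDGF-C, went from 67.4 ± 28.6 to 582 ± 53.1 CPM (3.12, SE 0.28, adjusted p = 0.000931). St14, matriptase, which can cut PDGF-D, rose by 0.59 (SE 0.11, adjusted p = 0.0102). Pcsk5, a convertase of the family that processes PDGF-A and PDGF-B precursors, went from 63.4 ± 8.22 to 22.8 ± 4.05 CPM (-1.49, SE 0.17, adjusted p = 0.00197). Furin and Pcsk6, convertases too, rose by 0.74 and 1.42 (adjusted p = 0.0492 and 0.025), the latter from 1.30 to 3.49 CPM.

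Of the 6 binding partners and decoys tested in BEC-like cells, 3 rose and 1 fell, with a median of 1.41. The list they come from also includes Adm, which is not known to bind PDGF. Nrp1, a co-receptor for PDGF and VEGF, went from 25.7 ± 3.95 to 120 ± 0.12 CPM (2.22, SE 0.14, edgeR adjusted p = 0.000381). Thbs1, thrombospondin, rose by 1.75 (adjusted p = 0.000454), and Sparc, a matrix protein that binds PDGF-B, by 1.39 (adjusted p = 0.000621). Lrp1, a partner of the beta receptor, fell by 0.78 on the log2 scale (adjusted p = 0.0138).

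Of 27 receptor adaptors and effectors tested in BEC-like cells, 6 rose and 4 fell, with a median of 0.09. Fyn, a kinase of the Src family, rose by 0.99 (edgeR adjusted p = 0.00267) and Nck1, an adaptor, by 0.57 (adjusted p = 0.0117). The transcription factors Stat3 and Stat5b fell, with log2 fold changes of -0.85 (adjusted p = 0.00379) and -1.56 (adjusted p = 0.00889). Of 12 negative regulators 1 rose and 2 fell, with a median of -0.08. Ptprj, a phosphatase, rose by 0.43 (adjusted p = 0.0325), and Dusp6 and Spry1, feedback inhibitors of ERK signalling, had log2 fold changes of -0.55 and -0.86 (adjusted p = 0.0131 and 0.0259).

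Of 10 related ligands and receptors tested in BEC-like cells, 3 rose and 2 fell, with a median of -0.16. Csf1, the ligand of the PDGF receptor relative Csf1r, went from 55.5 ± 6.21 to 286 ± 5.12 CPM (2.37, SE 0.13, edgeR adjusted p = 0.000331). Flt4, a VEGF receptor, rose by 1.94 (adjusted p = 0.00267). The ligands Vegfc and Vegfa had log2 fold changes of -1.58 and -0.67 (adjusted p = 0.00262 and 0.017). All of these counts stand beside the 27.3% of genes called in BEC-like cells. Of the 19 genes named from these lists, 11 were still called without sham 1 and 12 without sham 2, beside 1234 and 1393 genes called in all, and all 19 without either BDL library. Furin and Pcsk6, which stand outside those 19, both kept their call without BDL 1 alone. The log2 fold change of Furin went from 0.35 without BDL 2 to 1.07 without BDL 1. That of Pcsk6 went from 1.315 without BDL 2 to 1.534 without BDL 1.

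In mesenchymal-like cells the calls of the same lists stand beside 6.36% of genes called. Among binding partners and decoys Thbs1 rose by 1.55 and Sparc by 1.33 (edgeR adjusted p = 0.0202 and 0.0407), of 6 tested. Adm, a peptide hormone that was placed in this list but is not known to bind PDGF, fell (-1.69, edgeR adjusted p = 0.0395). Gab1, a docking protein, fell (-1.21, adjusted p = 0.0204), the only call among 26 adaptors and effectors. Flt1, a VEGF receptor that is also among the endothelial markers used here, rose by 1.30 (adjusted p = 0.0165), 1 of 6 related genes tested. The summed endothelial markers in these cells were 383 and 330 CPM in sham and 680 and 764 CPM in BDL, Flt1 included, with 3, 0, 4 and 3 of 11 at 0, and their part in that rise was not tested. Of the 5 genes named here 2 were still called without sham 1 and 3 without sham 2 (not Sparc and Flt1), all 5 without BDL 1, 2 without BDL 2 (Thbs1 and Flt1) and 3 with thinned sums. Of 7 activating proteases edgeR and DESeq2 called 0, with 2 (Furin and Plat) at an unadjusted p under 0.05 in each. Of 12 negative regulators both called 0, with 1 (Ptpn1) at an unadjusted p under 0.05 in edgeR and 0 in DESeq2. In stellate-like cells Plat and Sparc rose (1.78 each, adjusted p = 0.0459 and 0.0178), and in endothelial-like cells Nrp1 fell (-1.74, adjusted p = 0.0482). The call for Plat in stellate-like cells was lost without BDL 2 (1.29, adjusted p = 0.141) and that for Nrp1 without sham 2 (-1.19, adjusted p = 0.35) and without BDL 1 (-1.57, adjusted p = 0.182). In endothelial-like cells Plat rose by edgeR (4.24, SE 0.85, adjusted p = 0.0319), from 0 and 31.6 CPM in sham to 705 and 211 CPM in BDL. The call was lost without BDL 1 (3.25, adjusted p = 0.163), and the value was 7.85 without sham 2. Sham 1 held 0 UMIs of it, so that fold is no bound, and DESeq2 gave it no adjusted p.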

How the data were processed

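Per the labels' protocols, fixed cells were given barcodes by repeated splitting and pooling, and random hexamers were used beside oligo(dT) for priming. The values as deposited are raw counts of transcripts per cell and gene, with no normalization, and the reference is mm39 RefSeq per the file headers (GRCm39 per the submitters' processing notes). The counting software is not given in the sources used here.

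Cells under 500 UMIs (7) or over 20% mitochondrial UMIs (11) were left out of 12211. Scrublet called 14 doublets, under 0.5% of the cells, so it did not work as a filter. The 14 were removed and removal of the top 5% of scores (499 cells) was an alternative. The 2000 most variable genes without the 6 members gave 30 components, and Leiden clustering at resolution 1 on 20 neighbours gave 19 clusters (scanpy 1.11.5, leidenalg 0.10.2). A cluster was named from 3 or more markers. UMIs were summed per library and class. Sums of classes with at least 15 cells in each library were tested with edgeR 4.0.16 quasi-likelihood (TMM, filterByExpr, Benjamini-Hochberg over all genes, adjusted p of 0.05), with R 4.3.3. DESeq2 1.42.0 was an alternative. Scripts were checked on simulated counts. CPM is UMIs scaled to a class total of 1000000, and intervals are 95% and cover counting error only.

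Members, lists and markers were chosen with earlier results of these data known. Named genes were the members, up to 4 called genes per list by smallest adjusted p, and the 3 genes most like each member by Pearson r of log2(CPM + 5) over sums of at least 20 cells; Furin, Pcsk6 and the cluster leaders were added after their values were seen.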

Additional observations from a re-analysis of the deposited data

Results flagged for a closer look

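Pdgfd changed by different amounts in BEC-like and mesenchymal-like cells. The log2 fold change of BDL over sham was -0.58 in BEC-like and -2.19 in mesenchymal-like cells, and the interaction test gave a difference of 1.52 (SE 0.38, edgeR adjusted p = 0.0152, n = 2 libraries per group). Both BDL libraries were below both sham libraries in each class. The biliary markers in mesenchymal-like cells were at a median of 12.4% of the BEC-like level in sham 2, the library without which the difference is 0.77, and at 3.72% to 7.56% in the others. Their part in the difference was not tested.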

How the results depend on the processing

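No paired analysis was possible because no replicate number stands in the sample labels; the interaction alone pairs the 2 classes by library. Fits without 1 library take the spread of the group with a single library from the rest of the fit. With 2 libraries per group, the calls in BEC-like cells were 2 to 4 of the members without each library in turn and 3 with all. In mesenchymal-like cells the count of 2 members ranged from 1 to 3, in stellate-like cells from 0 to 1, and 1 member (Pdgfd) was called there without the filter on low counts. The interaction count of 1 ranged from 0 to 1. Pdgfra in stellate-like cells, near 0, turned to -0.034 with upper-quartile scaling, -0.14 without a filter and -0.0055 with thinned sums, and ranged from -0.0728 to 0.0397 without 1 library. Interaction values that turned were Pdgfc (from -1.30 to 0.38 without 1 library), Pdgfb (-0.61 to 1.26) and Pdgfra (-0.91 to 0.17). The change in the share of cells at 2000 UMIs was 37.2 percentage points for Pdgfb, -12.2 for Pdgfc and 4.84 for Pdgfra. Unthinned it was 9.58 for Pdgfa, 60.9 for Pdgfb, -1.59 for Pdgfc, 9.99 for Pdgfd, 22.5 for Pdgfra and 38.1 for Pdgfrb. Without 1 library the change in the share of Pdgfra at 1000 UMIs ranged from -9.73 to 1.27. Genes called in BEC-like cells were 4355, and 1234, 1393 and 6600 without sham 1, sham 2 and BDL 1, and 52.5% of calls were higher against 41.5% with upper-quartile scaling and 62.6% without a filter. In mesenchymal-like cells 557 were called, 355 by DESeq2, 1098 without a filter and from 178 (without sham 1) to 1181 (without BDL 1) without 1 library. The interaction called 879 genes, and 339 without BDL 2. The causes were not tested. Counts of a few UMIs limit Pdgfb in mesenchymal-like cells and all members in endothelial-like cells.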

Other observations

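Macrophage-like and hepatocyte-like cells gave PDGF values that stand beside biliary transcripts. In the 87 macrophage-like cells Pdgfb was 43.8 and 55.8 CPM in sham and 216 and 320 CPM in BDL, and Pdgfrb was at 0 in all 4 libraries. Biliary markers in these cells were at a median of 44.2%, 12.4%, 49.1% and 79.0% of the BEC-like level in sham 1, sham 2, BDL 1 and BDL 2, so their own Pdgfb level was not resolved. Hepatocyte-like cells held 7.94 CPM of Pdgfb in sham 2 (1 UMI in 32 cells), 349 CPM in BDL 1 (8 cells) and 247 CPM in BDL 2 (34 cells), beside biliary markers at a median of 14.3%, 25.6% and 12.8%. Sham 1 had 2 such cells and 0 UMIs. The groups sat in different clusters, 31 of the 32 cells of sham 2 in one led by Car3 and Mup3, and 7 of the 8 of BDL 1 and all 34 of BDL 2 in one led by Fgb and Hpx, so they are not compared.

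The genes most like each member were named by Pearson r over 35 sums of a cluster in a library, among 6819 genes. The sums share libraries, depth and cell class, so r is a description. Pdgfrb was most like Sparcl1 (0.998), Tbx20 and Col6a1, and Pdgfra most like Gucy1a1 (0.987), Cygb and Adamtsl2, where Cygb is a marker that named the cells. The receptors had r = 0.971 with each other. Pdgfc was most like Tox3 (0.914), Trp53bp2 and Shank2, Pdgfd most like Kcnip4 (0.899), Anxa13 and Ccnd1, and Pdgfa most like Fstl3 (0.790), Ank2 and Col4a4. Pdgfb was most like Ikbkb (0.958), a kinase that activates NF-kB, Lama5 and Fgd6.

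Over the 21 sums of BEC-like clusters alone, Pdgfb was most like Tnfaip3 (0.981), an inhibitor of NF-kB signalling, Cxcl16, a chemokine, and Parp8. Over the same sums Pdgfb ran against Pdgfc (-0.845) and Pdgfd (-0.821), and Pdgfc and Pdgfd ran together (0.774). All of these sums come from 4 libraries in which the clusters split by group.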
